A study of Mus musculus with 16 samples.

Results

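The 10 genes described here, Gata2, Gata3, Hand1, Esx1, Krt7, Ascl2, Plet1, Elf5, Eomes and Tfap2c, belong to the trophoblast, the lineage that builds the fetal side of the placenta. They were chosen by name, with earlier results of these data known, though no measured value entered the rule. Every probe whose gene name on the array is 1 of these symbols, or an older symbol of the same gene, was taken. All 10 genes were on the array, with 13 of its 41174 probes that are not controls. Plet1 carries the older name 1600029D21Rik there and Tfap2c the older name Tcfap2c. Gata2, Krt7 and Plet1 had 2 probes each and the other genes 1. Of the 10 genes, 9 passed the filter on dim probes (well above background on every array of at least 1 group) and were tested among 18281 genes; Elf5 did not pass. Gata3 and Hand1 passed although they were not well above background in every group, so counts over the 9 tested genes are descriptions.

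By its label every sample came from E14, a line of mouse embryonic stem cells, cultured with LIF, the cytokine used to hold such cells undifferentiated. A lentivirus had placed a hairpin RNA stably in each line, against Sirt1, the gene of an NAD-dependent protein deacetylase, in sh-SIRT1 cells, and a control sequence in sh-Control cells. The groups were sh-SIRT1 cells with 20 nM retinoic acid (RA) for 2 days (n = 6 arrays), sh-Control cells with the same RA (n = 4), sh-SIRT1 cells with ethanol vehicle (n = 3) and sh-Control cells with vehicle (n = 3). Whether a line is 1 clone or a pool, which isomer of RA was used and which RA arrays repeat the same culture, the sources used here do not say, so a p-value sets a difference against a spread between arrays that may be partly technical.

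The trophoblast is the first lineage to part from the embryo proper. Embryonic stem cells stem from the inner cell mass and rarely enter it, and Tead4 and Cdx2, with Gata3 beside them, act early in the switch. Eomes, Elf5 and Tfap2c are known for keeping trophoblast stem cells, Ascl2 and Plet1 for precursors of the spongiotrophoblast and the early ectoplacental cone, Hand1 and Gata2 for giant cells, and Esx1 for the labyrinth. Krt7 encodes a keratin of simple epithelia that is widely used to recognise trophoblast. Several of these genes act elsewhere too: Eomes and Hand1 in the primitive streak and mesoderm, Gata2 and Gata3 in blood, ectoderm and neural tissue.

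Intensities are given as the log2 of the processed signal over the array's own 75th percentile, and are called levels below; levels of different probes are not set against each other. Between 60.3% and 68.6% of spots were well above background per array, and the 75th percentile lay between 684 and 1155. Sirt1 itself had levels of 0.92 to 1.59 in sh-SIRT1 RA and 3.28 to 3.48 in sh-Control RA, and of 1.83 to 1.89 in sh-SIRT1 vehicle and 3.53 to 3.85 in sh-Control vehicle. All 10 pluripotency genes listed as markers of the labelled cell type were well above background on all 16 arrays. In sh-Control RA, arrays 2 to 4 stood apart from array 1 and from the other groups: Ddx3y, a Y-linked gene, was at 0.23 on array 1 and between -8.12 and -6.91 on arrays 2 to 4, against 0.33 to 1.60 in the other 3 groups. The labels put all 4 in the same line and group, and whether arrays 2 to 4 come from the same cells as array 1 cannot be told from the files. This bears on every difference that uses sh-Control RA. It also bears on the SE and p-values of the other comparisons, since all 4 groups share 1 estimate of the spread. Differences of the 9 tested genes and most list counts that use this group are therefore also given with array 1 as the whole group. That fit assumes that a lone array varies like the other groups. Of the trophoblast genes, array 1 lay above arrays 2 to 4 for Hand1, Krt7, Ascl2 and Plet1, below them for Elf5 and Tfap2c, and among them for Gata2, Gata3, Esx1 and Eomes.

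On the mouse build mm7, the build of the file headers, the probes lie at chr6:88281934-88281993 and chr6:88281461-88281520 (Gata2), chr2:9796514-9796573 (Gata3), chr11:57910385-57910444 (Hand1), chrX:131834651-131834710 (Esx1), chr15:101413898-101413957 and chr15:101409444-101409503 (Krt7), chr9:118163832-118163891 (Eomes), chr9:50483584-50483643 and chr9:50477771-50477830 (Plet1), chr7:139395814-139395873 (Ascl2), chr2:172351014-172351073 (Tfap2c) and chr2:103301588-103301647 (Elf5). The exon or untranslated region of each probe was not analysed here. For the genes with 2 probes, the brighter, named first, stood for the gene. The second probes of Plet1, which differed most between the lines in vehicle, and of Krt7, which rose most under RA in sh-SIRT1 cells among the genes with 2 probes, are shown because they are the separate sequences on which these results were checked:
Plet1 second probe: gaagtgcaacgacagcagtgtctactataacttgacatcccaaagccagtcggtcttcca
Krt7 second probe: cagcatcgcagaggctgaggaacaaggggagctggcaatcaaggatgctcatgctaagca

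RefSeq promoters (GRCm38.p6, 250 bases before and 50 after the start) were found for 8 of the 10 genes; Hand1 and Tfap2c are named only. They were searched on either strand for AGGTCA, the hexamer read by retinoic acid and related nuclear receptors, and for GCCNNNGGC, read by the AP-2 family to which Tfap2c belongs. Of 32851 promoters in the table, 16.3% hold AGGTCA and 16.6% hold GCCNNNGGC. A GATA factor site, AGATAA, is in 11.2% and a T-box site, GGTGTGA, in 3.98%. AGGTCA or its reverse occurred in the promoters of Plet1, at position -62 from the start, and of Krt7, at position 15. GCCNNNGGC occurred 3 times for Gata3, 2 times for Krt7 and 1 time in 1 of 2 Gata2 promoters; AGATAA occurred in none, and GGTGTGA in those of Plet1, Gata2 and Elf5. These letters are a description of the sequence, not sites of binding. The promoters of Esx1, Eomes and Ascl2 held none of the letters searched for. Among the tested genes Plet1 differed most between the lines, and Gata3 and Krt7 rose most under RA in sh-SIRT1 cells. The promoters of Plet1 (chr9:50494275-50494574, plus strand), Krt7 (chr15:101412153-101412452, plus strand) and Gata3 (chr2:9878551-9878850, minus strand) are shown, in capitals where they hold AGGTCA, its reverse TGACCT or GCCNNNGGC:
Plet1: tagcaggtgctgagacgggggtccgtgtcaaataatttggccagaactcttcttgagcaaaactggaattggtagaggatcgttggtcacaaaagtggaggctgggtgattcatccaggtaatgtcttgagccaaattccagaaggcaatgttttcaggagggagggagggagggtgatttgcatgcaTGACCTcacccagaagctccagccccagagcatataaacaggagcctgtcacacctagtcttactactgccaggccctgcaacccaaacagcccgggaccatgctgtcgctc
Krt7: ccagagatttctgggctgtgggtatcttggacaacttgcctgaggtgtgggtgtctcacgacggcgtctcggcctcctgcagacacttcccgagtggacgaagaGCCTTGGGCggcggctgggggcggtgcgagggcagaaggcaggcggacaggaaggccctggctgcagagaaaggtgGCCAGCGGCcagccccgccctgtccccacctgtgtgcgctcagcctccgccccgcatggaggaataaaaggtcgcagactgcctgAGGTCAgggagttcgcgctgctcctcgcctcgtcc
Gata3: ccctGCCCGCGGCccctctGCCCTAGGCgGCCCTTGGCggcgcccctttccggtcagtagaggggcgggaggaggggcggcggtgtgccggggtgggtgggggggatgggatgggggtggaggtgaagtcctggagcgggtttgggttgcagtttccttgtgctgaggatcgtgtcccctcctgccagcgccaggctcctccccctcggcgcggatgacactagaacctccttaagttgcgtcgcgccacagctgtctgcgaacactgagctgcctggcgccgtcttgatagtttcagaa

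RA against vehicle asks how each line answered the treatment. Gata2, Gata3, Hand1, Esx1, Krt7 and Eomes rose in both lines, by 3.32-fold to 28.9-fold in sh-SIRT1 cells. Plet1 rose in sh-SIRT1 cells and not by the test in sh-Control cells, Ascl2 fell in sh-Control cells only by the test, and Tfap2c passed in neither. In sh-SIRT1 cells 7 of 9 tested genes rose and 0 fell by limma (0 also at an unadjusted p under 0.05), where 58.2% of all 18281 genes passed, 23% rose and 35.3% fell. In sh-Control cells 6 rose and 1 fell, where 46.8% of all genes passed, 19.7% rose and 27.2% fell; with array 1 as the whole sh-Control RA group, 6 rose and 1 fell as well. The median log2 difference of the 9 genes was 3.04 in sh-SIRT1 cells and 2.47 in sh-Control cells, against -0.13 and -0.14 over all genes. RA and vehicle arrays did not overlap for 7 of the 9 genes in either line, which also held for 57.7% of all genes in sh-SIRT1 cells and 47.6% in sh-Control cells. In bulk RNA, more cells of a type and more RNA per cell cannot be told apart.

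**Figure D1:**
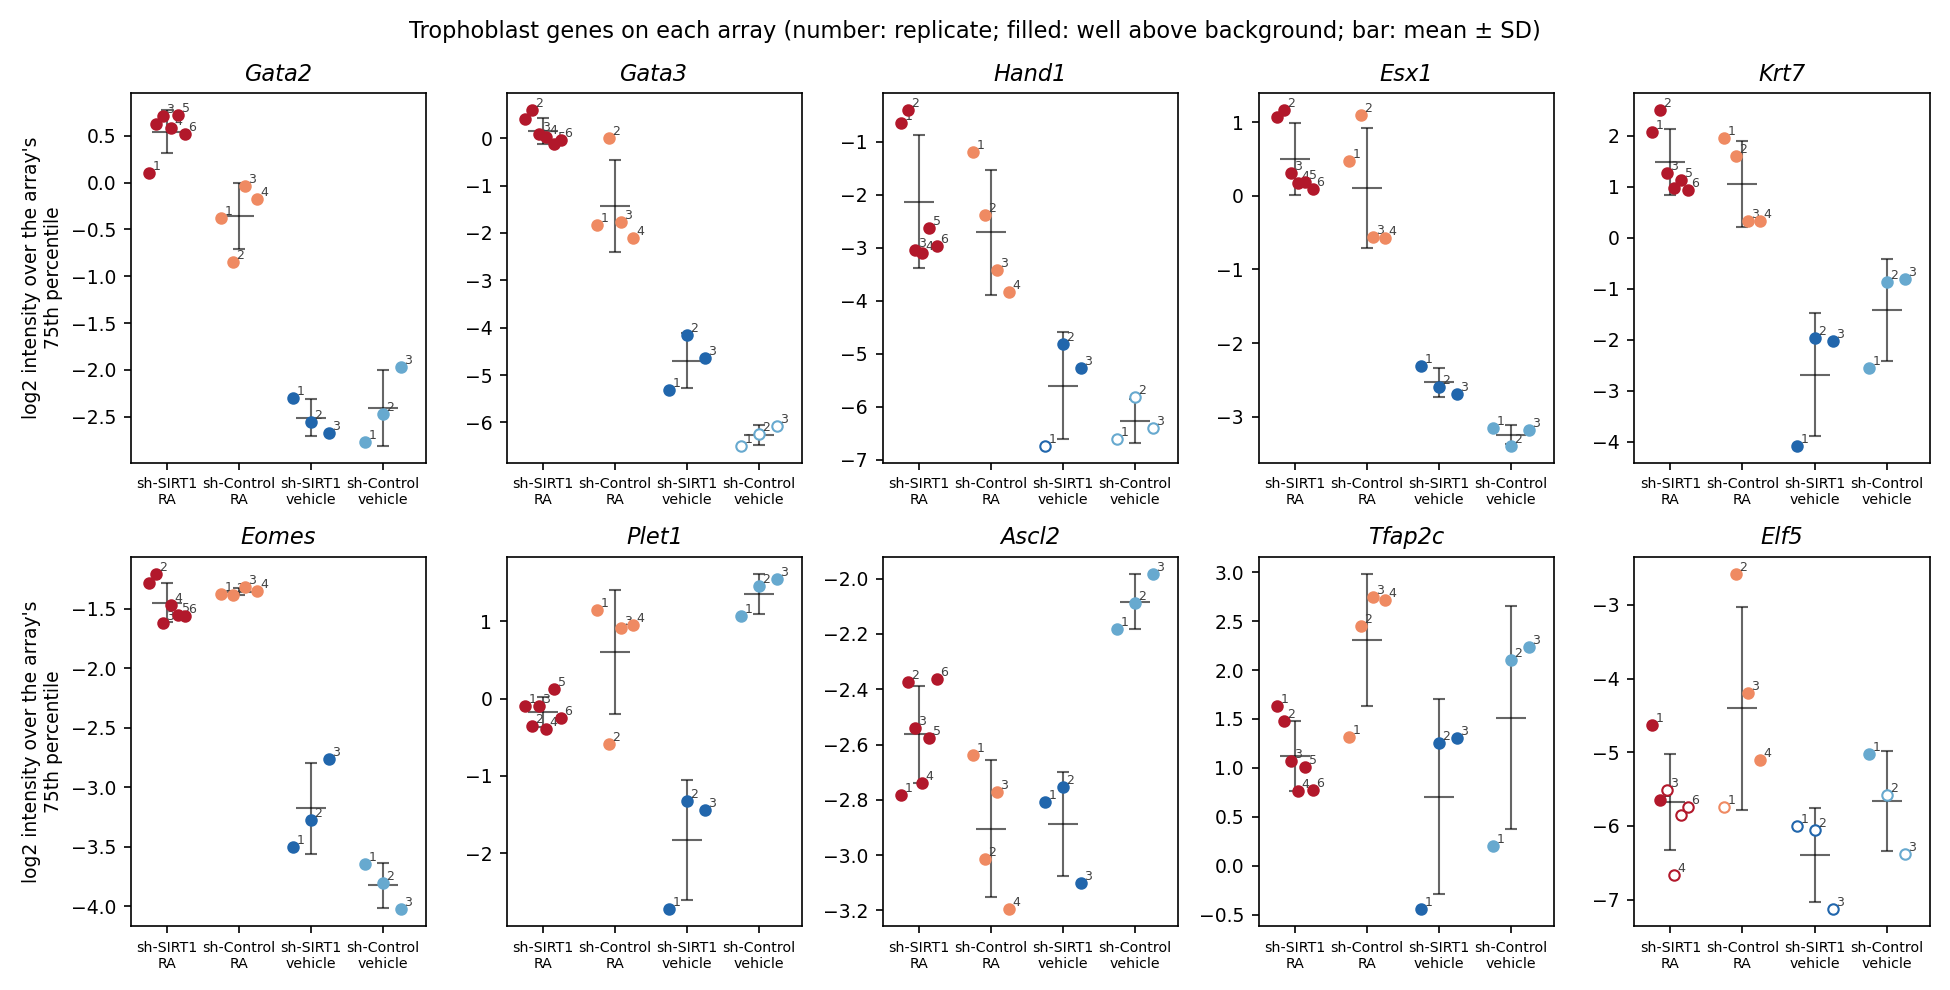
Level (log2 intensity over the array's 75th percentile) of the 10 trophoblast genes on each of the 16 arrays, by group; the number is the replicate, filled points are well above background, and bars are mean ± SD. Gata3 sits between -0.13 and 0.59 in sh-SIRT1 RA and is not well above background on any sh-Control vehicle array.

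Of the regulators of giant cells, Gata2 encodes a zinc finger transcription factor. Its lowest, median and highest levels were 0.10, 0.61 and 0.72 in sh-SIRT1 RA, and its levels were -0.38, -0.85, -0.03 and -0.18 in sh-Control RA, -2.30, -2.56 and -2.68 in sh-SIRT1 vehicle, and -2.77, -2.47 and -1.97 in sh-Control vehicle. All RA arrays lay above all vehicle arrays, and the RA arrays of the lines did not overlap. RA raised Gata2 by 3.05 ± 0.20 in sh-SIRT1 cells (log2 difference ± SE, limma adjusted p = 3.85e-08) and by 2.04 ± 0.22 in sh-Control cells (adjusted p = 5.26e-06, and 2.03 with array 1 alone). Its second probe rose by 3.18 and 2.18 in the same order of lines.

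Hand1 encodes a basic helix-loop-helix factor that giant cells need. In sh-SIRT1 RA its levels were -0.65 and -0.41 on arrays 1 and 2 and -3.10 to -2.62 on arrays 3 to 6. In sh-Control RA they were -1.19, -2.38, -3.41 and -3.84, in sh-SIRT1 vehicle -6.74, -4.81 and -5.27, and in sh-Control vehicle -6.61, -5.81 and -6.40. Under RA the arrays numbered 1 and 2 were the high ones in each line, and in vehicle 2 of the 6 arrays were well above background, both of sh-SIRT1 cells. RA raised Hand1 by 3.47 ± 0.72 in sh-SIRT1 cells (limma adjusted p = 8.66e-04). In sh-Control cells it was at least 6.50-fold higher under RA, since no vehicle array measured it (adjusted p = 0.00194, and a difference of 5.08 with array 1 alone). The rise of Hand1 in sh-Control cells was lost with normexp background correction (1.33, adjusted p = 0.0767).

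Gata3, which can turn on Cdx2 in mouse trophoblast, had a lowest, median and highest level of -0.13, 0.06 and 0.59 in sh-SIRT1 RA. Its levels were -1.84, -0.0046, -1.78 and -2.11 in sh-Control RA, -5.31, -4.15 and -4.64 in sh-SIRT1 vehicle, and -6.49, -6.25 and -6.07 in sh-Control vehicle, where no array was well above background. Array 2 of sh-Control RA was the high one of its group and lay within the range of sh-SIRT1 RA; every RA array lay far above every vehicle array. RA raised Gata3 by 4.85 ± 0.38 in sh-SIRT1 cells (limma adjusted p = 1.79e-07), 28.9-fold. In sh-Control cells it was at least 15.7-fold higher (adjusted p = 6.53e-07, and a difference of 4.43 with array 1 alone).

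Esx1, an X-linked homeobox gene of the labyrinth, had levels of 1.07 and 1.16 on arrays 1 and 2 of sh-SIRT1 RA and of 0.09 to 0.32 on arrays 3 to 6. Levels were 0.48, 1.09, -0.56 and -0.57 in sh-Control RA, -2.32, -2.59 and -2.69 in sh-SIRT1 vehicle, and -3.15, -3.39 and -3.18 in sh-Control vehicle. As for Hand1, the RA arrays numbered 1 and 2 were the high ones in each line. RA raised Esx1 by 3.04 ± 0.35 in sh-SIRT1 cells (limma adjusted p = 5.33e-06) and by 3.35 ± 0.37 in sh-Control cells (adjusted p = 8.61e-06, and 3.72 with array 1 alone).

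The keratin gene Krt7 was at 2.08 and 2.50 on arrays 1 and 2 of sh-SIRT1 RA and at 0.94 to 1.26 on arrays 3 to 6. It was at 1.96, 1.60, 0.34 and 0.32 in sh-Control RA, at -4.08, -1.96 and -2.03 in sh-SIRT1 vehicle, and at -2.56, -0.87 and -0.82 in sh-Control vehicle. Vehicle array 1 was the low one of each line, and RA arrays 1 and 2 again the high ones. RA raised Krt7 by 4.17 ± 0.57 in sh-SIRT1 cells (limma adjusted p = 2.79e-05), 18.0-fold, and by 2.47 ± 0.62 in sh-Control cells (adjusted p = 0.0049, and 3.37 with array 1 alone). The second probe, printed above, rose by 3.28 and 1.86.

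Eomes, a T-box factor of trophoblast stem cells and of the primitive streak, was at a lowest, median and highest level of -1.62, -1.51 and -1.21 in sh-SIRT1 RA. Its levels were -1.38, -1.39, -1.32 and -1.35 in sh-Control RA, -3.50, -3.27 and -2.76 in sh-SIRT1 vehicle, and -3.64, -3.81 and -4.03 in sh-Control vehicle. The RA arrays of the lines overlapped, while sh-SIRT1 vehicle arrays lay above those of sh-Control vehicle. RA raised Eomes by 1.73 ± 0.14 in sh-SIRT1 cells (limma adjusted p = 3.35e-07) and by 2.47 ± 0.16 in sh-Control cells (adjusted p = 5.33e-08, and 2.45 with array 1 alone).

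Plet1, a surface protein of early trophoblast and of the ectoplacental cone, had a lowest, median and highest level of -0.39, -0.17 and 0.12 in sh-SIRT1 RA. Its levels were 1.14, -0.59, 0.91 and 0.95 in sh-Control RA, -2.73, -1.33 and -1.43 in sh-SIRT1 vehicle, and 1.06, 1.46 and 1.55 in sh-Control vehicle. Array 2 of sh-Control RA was the low one of its group, below every sh-SIRT1 RA array. RA raised Plet1 by 1.65 ± 0.35 in sh-SIRT1 cells (limma adjusted p = 0.00113), and in sh-Control cells the difference was -0.75 ± 0.38 (adjusted p = 0.12, and -0.21 with array 1 alone). The second probe differed by 1.15 in sh-SIRT1 cells and -0.65 in sh-Control cells.

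Ascl2, an imprinted gene whose basic helix-loop-helix product spongiotrophoblast needs, had a lowest, median and highest level of -2.78, -2.56 and -2.36 in sh-SIRT1 RA. Levels were -2.64, -3.01, -2.77 and -3.20 in sh-Control RA, -2.81, -2.75 and -3.10 in sh-SIRT1 vehicle, and -2.18, -2.09 and -1.98 in sh-Control vehicle. The sh-Control vehicle arrays were higher than all other arrays. Ascl2 fell under RA in sh-Control cells by 0.82 on the log2 scale (SE 0.14, limma adjusted p = 4.27e-04, and a difference of -0.55 with array 1 alone, adjusted p = 0.0403). In sh-SIRT1 cells the difference was 0.32 ± 0.13 (adjusted p = 0.0509) and passed in 7 of 25 alternative settings. With normexp background correction the fall in sh-Control cells was no longer past the threshold (-0.44, adjusted p = 0.307).

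Tfap2c, an AP-2 factor of trophoblast stem cells and germ cells, had a lowest, median and highest level of 0.76, 1.04 and 1.64 in sh-SIRT1 RA. Its levels were 1.31, 2.45, 2.75 and 2.72 in sh-Control RA, -0.44, 1.26 and 1.30 in sh-SIRT1 vehicle, and 0.20, 2.10 and 2.24 in sh-Control vehicle. The vehicle array numbered 1 was low in each line, by more than the distance between RA and vehicle means, and the groups overlapped. The differences between RA and vehicle were 0.42 ± 0.49 in sh-SIRT1 cells (limma adjusted p = 0.482) and 0.79 ± 0.53 in sh-Control cells (adjusted p = 0.228, and -0.20 with array 1 alone).

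Elf5, an ETS factor that marks committed trophoblast stem cells, was well above background on 2 of 6 arrays of sh-SIRT1 RA (levels -4.63 and -5.65), on 3 of 4 of sh-Control RA (-2.58, -4.19 and -5.11), on 0 of 3 of sh-SIRT1 vehicle and on 1 of 3 of sh-Control vehicle (-5.03). The highest of its values was on array 2 of sh-Control RA. Tested with no filter on dim probes, Elf5 had adjusted p-values of 0.405 for RA in sh-SIRT1 cells, 0.135 for RA in sh-Control cells, 0.173 for sh-SIRT1 against sh-Control under RA, and 0.57 for sh-SIRT1 against sh-Control in vehicle; array 1 of sh-Control RA was at -5.74, not well above background, and no fit with array 1 alone was made for Elf5.

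**Figure D2:**
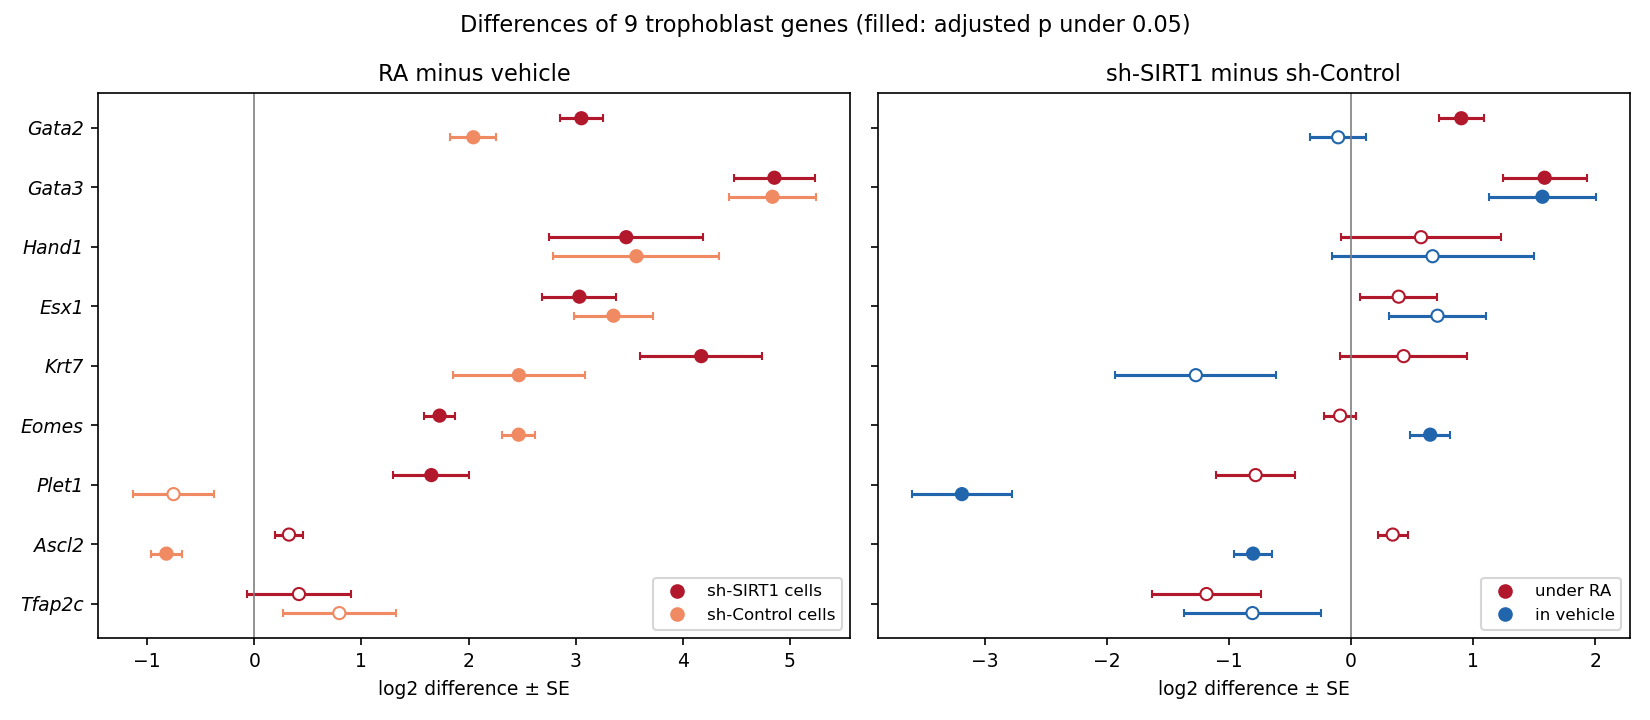
Log2 differences ± SE of the 9 tested trophoblast genes from limma, RA minus vehicle in each line (left) and sh-SIRT1 minus sh-Control under each treatment (right); filled points have an adjusted p under 0.05. On the left, 6 genes are filled in both lines to the right of 0; on the right, Plet1 in vehicle lies farthest out, at -3.19.

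Markers of other lineages were also compared between RA and vehicle. Of all genes, 58.2% passed in sh-SIRT1 cells (23% rose, 35.3% fell) and 46.8% in sh-Control cells (19.7% rose, 27.2% fell). Of 12 primitive endoderm genes, 9 rose in sh-SIRT1 cells and 8 in sh-Control cells (12 with array 1 alone) and 0 fell in either, also at an unadjusted p under 0.05; all 12 were measured, and Foxa2, well above background on 2 of 3 sh-SIRT1 vehicle arrays, rose by 5.41 in sh-SIRT1 cells and 4.72 in sh-Control cells (5.45 with array 1 alone). Their summed level (linear, relative to the 75th percentile) was 24.9 to 41.2 in sh-SIRT1 RA, 16.4 to 102 in sh-Control RA with the highest on array 1, 11.6 to 13.5 in sh-SIRT1 vehicle and 15.0 to 20.9 in sh-Control vehicle. Of 10 fibroblast genes 7 were tested, with Lum, Postn and Fap not passing the filter; 6 rose in sh-SIRT1 cells and 5 in sh-Control cells (6 with array 1 alone), and the summed level was 7.52 to 13.3 in sh-SIRT1 RA, 6.70 to 17.8 in sh-Control RA, 2.50 to 2.80 in sh-SIRT1 vehicle and 7.93 to 8.30 in sh-Control vehicle. Of 12 primitive streak and mesoderm genes, which bear on Eomes and Hand1, 9 were tested, with Mixl1, Foxf1 and Msgn1 not passing; 3 rose and 3 fell in sh-SIRT1 cells, and 1 rose and 2 fell in sh-Control cells (1 and 1 with array 1 alone). T and Gsc were not well above background on every array of either vehicle group and passed the filter only through RA arrays. The RA counts of this list are therefore descriptions. The summed level of the 9 tested genes was 1.54 to 4.02 in sh-SIRT1 RA, 2.04 to 3.77 in sh-Control RA, 4.18 to 5.70 in sh-SIRT1 vehicle and 4.24 to 4.73 in sh-Control vehicle. The part of these cell types in the differences of the trophoblast genes was not tested.

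Sh-SIRT1 against sh-Control in vehicle compares the lines without RA. Gata3 and Eomes were higher in sh-SIRT1 cells, Plet1 and Ascl2 were lower, and the other 5 tested genes did not pass, where 8.62% of all genes passed, 4.41% higher and 4.21% lower. Groups did not overlap for 5 of the 9 genes, against 36% of all genes, and the median difference was -0.11 against -0.01 over all genes. Plet1 was 9.11-fold lower in sh-SIRT1 vehicle than in sh-Control vehicle (-3.19 ± 0.41, limma adjusted p = 4.12e-04). On the 2 slides that held an array of each group the Plet1 difference was -2.39 and -2.90, and the second probe gave -2.59. Ascl2 differed by -0.80 ± 0.15 (adjusted p = 0.00611), by -0.57 and -1.01 within those slides. Gata3, not well above background on any sh-Control vehicle array, was at least 1.63-fold higher in sh-SIRT1 vehicle (adjusted p = 0.0384). Eomes differed by 0.65 ± 0.17 (adjusted p = 0.0266). Of the markers of other cell types, 2 of 7 fibroblast genes were lower in sh-SIRT1 vehicle, Thy1 by 2.48 and Fbln1 by 0.73 on the log2 scale (adjusted p = 0.0149 and 0.00102), with the summed levels given above. Of 9 streak and mesoderm genes Kdr was lower (-2.32, adjusted p = 0.00423) and Mesp1 higher (0.97, adjusted p = 0.0191). Of the primitive endoderm, pluripotency and neural genes 0 passed by limma; at an unadjusted p under 0.05, 2 endoderm genes were lower and 1 neural gene higher. With the replicate block 1 fibroblast gene was higher and 2 lower, and 1 neural gene was higher. Their part in these differences was not tested.

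The calls of Gata3 and Eomes in vehicle were the less firm ones: Gata3 passed in 12 of 24 alternative settings and Eomes in 18 of 25, and normexp background correction reduced the differences to 0.22 and 0.23 and that of Ascl2 to -0.56, none past the threshold. With the replicate number as a block, which compares arrays of the same number, Eomes no longer passed (adjusted p = 0.0662), while Esx1 (0.71, adjusted p = 0.024) and Krt7 (-1.27, adjusted p = 0.00486) did; the block called 3515 of all genes, against 1576 without it. In the numbered pairs Krt7 differed by -1.52, -1.09 and -1.21, sh-SIRT1 minus sh-Control, and Esx1 by 0.84, 0.80 and 0.49, so that the sign was the same in all 3 pairs of each. Without the block Krt7 differed by -1.27 ± 0.66 (adjusted p = 0.266) and Esx1 by 0.71 ± 0.40 (adjusted p = 0.309). Gata2, Hand1 and Tfap2c differed by -0.11, 0.67 and -0.81 and passed neither with nor without the block.

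Under RA, the comparison that bears on the title of the series, Gata2 and Gata3 were higher in sh-SIRT1 cells and none of the 9 was lower, where 20.3% of all genes passed, 8.59% higher and 11.7% lower. At an unadjusted p under 0.05, 3 of the 9 were higher and 2 lower. The median difference of the 9 genes was 0.39, against -0.04 over all genes, and only Gata2 had groups that did not overlap, as did 15.4% of all genes. Gata2 averaged 0.54 ± 0.23 in sh-SIRT1 RA (SD, n = 6) and -0.36 ± 0.35 in sh-Control RA (SD, n = 4), a difference of 0.90 ± 0.18 (limma adjusted p = 0.00355). With array 1 as the whole sh-Control RA group Gata2 differed by 0.92 and no longer passed (adjusted p = 0.0558). Gata3 averaged 0.15 ± 0.28 in sh-SIRT1 RA and -1.43 ± 0.96 in sh-Control RA, a difference of 1.59 ± 0.34 (adjusted p = 0.00558), and of 1.99 with array 1 alone (adjusted p = 0.00659). Within slides 1, 2 and 4, which hold arrays of each line, Gata2 differed by 0.62, 1.23 and 0.69 and Gata3 by 1.81, 0.93 and 2.01.

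The replicate block, over the 4 pairs of RA arrays that share a number, called 4 trophoblast genes, against 2 without it; over all 18281 genes it called 5126, against 3706 without it. Esx1 differed by 0.57 (adjusted p = 0.0219) and Krt7 by 0.65 (adjusted p = 0.0176) in that fit, against 0.39 and 0.43 without it (adjusted p = 0.421 and 0.608). In the 4 pairs Krt7 differed by 0.12, 0.90, 0.93 and 0.66 and Esx1 by 0.60, 0.07, 0.87 and 0.74. With array 1 as the whole sh-Control RA group, without the block, Krt7 differed by -0.47 and Esx1 by 0.03. Hand1 differed by 0.57 ± 0.65 (adjusted p = 0.585) without the block and by 0.90 with it (adjusted p = 0.0658). Its 4 pairs differed by 0.54, 1.98, 0.36 and 0.74, all positive, while array 1 of sh-Control RA against all 6 sh-SIRT1 RA arrays gave -0.94.

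The remaining genes did not pass under RA. Plet1 differed by -0.78 ± 0.32 (limma adjusted p = 0.105, and -1.32 with array 1 alone), and 3 of its 4 numbered pairs were negative, the lowest at -1.35, while pair 2 was at 0.23. Without array 2 of sh-Control RA, Plet1 differed by -1.18 and passed (adjusted p = 0.00524). Tfap2c differed by -1.18 ± 0.44 (adjusted p = 0.0753), and by -0.19 with array 1 alone, array 1 being the lowest of the sh-Control RA arrays for this gene; without that array it differed by -1.52 and passed (adjusted p = 0.0283). Ascl2 differed by 0.34 ± 0.12 (adjusted p = 0.0639, 0.07 with array 1 alone, and 0.43 without it, adjusted p = 0.0239) and Eomes by -0.09 ± 0.13 (adjusted p = 0.677, and -0.07 with array 1 alone).

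**Figure D3:**
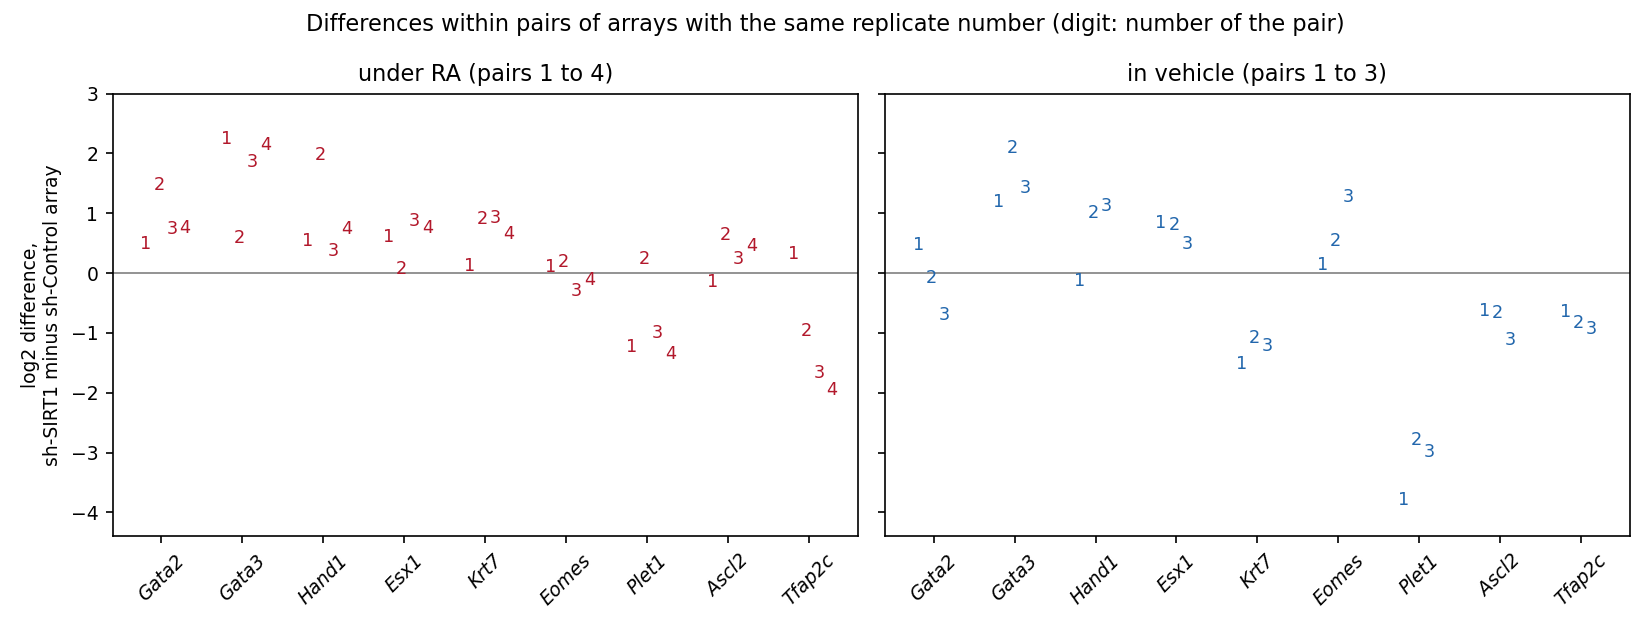
Log2 difference, sh-SIRT1 minus sh-Control, within each pair of arrays that carry the same replicate number, under RA (4 pairs) and in vehicle (3 pairs); each digit is the number of a pair. Gata3 lies above 0 in all 7 pairs, and Plet1 lies below 0 in all 3 vehicle pairs and in 3 of 4 RA pairs.

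Other lists were compared between the lines under RA as well, where 8.59% of all genes were higher and 11.7% lower in sh-SIRT1 cells. Of 10 pluripotency genes 0 were higher (0 also at an unadjusted p under 0.05) and 4 lower in sh-SIRT1 cells, as with array 1 alone, with summed levels of 261 to 352 in sh-SIRT1 RA and of 300.4 to 516 in sh-Control RA, the highest on array 1. Of 6 neural genes 3 were higher (2 with array 1 alone) and 0 lower, with summed levels of 3.61 to 5.28 in sh-SIRT1 RA and 1.65 to 3.17 in sh-Control RA. Of the 12 primitive endoderm genes 0 passed by limma (0 also at an unadjusted p under 0.05), while with array 1 as the whole sh-Control RA group 9 were lower in sh-SIRT1 cells. With the replicate block 5 pluripotency genes were lower, 3 neural genes higher and 1 lower, and 0 endoderm genes passed. Of 7 RA targets 4 were higher in sh-SIRT1 cells and 0 lower, with a median difference of 0.97. The replicate block called 3 of them higher and 2 lower. For 2 of the 7 the rise under RA was larger in sh-SIRT1 cells by limma, and for 0 smaller. Of all genes 1.71% passed in that direction. The part of these lists in the differences of Gata2 and Gata3 was not tested.

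The difference between the RA effects of the lines, sh-SIRT1 minus sh-Control, tests whether a gene answered RA differently. Ascl2 and Plet1 passed, both with a higher value in sh-SIRT1 cells, and no other trophoblast gene passed, where 3.59% of all genes passed, 1.71% higher and 1.88% lower. For Plet1 the difference of RA effects was 2.41 ± 0.52 (limma adjusted p = 0.0241), made of a rise in sh-SIRT1 cells and a difference in sh-Control cells that did not pass. For Ascl2 it was 1.14 ± 0.20 (adjusted p = 0.00914). Both genes began lower in sh-SIRT1 vehicle than in sh-Control vehicle, and under RA the lines overlapped for both. With array 1 as the whole sh-Control RA group neither passed (Plet1 1.87, adjusted p = 0.108; Ascl2 0.88, adjusted p = 0.0886), and neither did with the slide as a block (adjusted p = 0.128 and 0.0731) or with normexp (adjusted p = 0.0873 and 0.634). The second Plet1 probe gave 1.80 (adjusted p = 0.0505).

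For the genes that rose in both lines, the difference of RA effects did not pass. It was 1.01 ± 0.29 for Gata2 (limma adjusted p = 0.0712), -0.74 ± 0.21 for Eomes (adjusted p = 0.0677), 1.70 ± 0.84 for Krt7 (adjusted p = 0.277), 0.02 ± 0.55 for Gata3 (adjusted p = 0.992), -0.32 ± 0.51 for Esx1 (adjusted p = 0.776) and -0.09 ± 1.06 for Hand1 (adjusted p = 0.973). With array 1 alone these were 1.03, -0.72, 0.80, 0.42, -0.68 and -1.61. Krt7 passed with the replicate block (1.92, adjusted p = 0.0131). The second Gata2 probe, tested beside all kept probes, differed by 1.00 (adjusted p = 0.0398). Gata3 was higher in sh-SIRT1 cells by 1.57 in vehicle and by 1.59 under RA, with the vehicle value resting on arrays at background. Tfap2c had a difference of -0.38 (adjusted p = 0.817).

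Beyond these 10 genes, 17 genes of trophoblast specification and of trophoblast stem cells were listed and 15 tested. Under RA 7 rose and 5 fell in sh-SIRT1 cells and 6 rose and 4 fell in sh-Control cells. Of all genes 23% rose and 35.3% fell in sh-SIRT1 cells, and 19.7% rose and 27.2% fell in sh-Control cells. These shares also stand beside the RA counts of the lists below. The median differences were 0.15 and 0.25, against -0.13 and -0.14 over all genes. Because Cdx2 passed the filter only through RA arrays, the RA counts and medians of this list are descriptions. Cdx2, the homeobox gene of the trophectoderm, rose by 5.05 ± 0.51 in sh-SIRT1 cells, with 1 of 3 vehicle arrays well above background (limma adjusted p = 2.06e-06), and was at least 10.2-fold higher under RA in sh-Control cells, where no vehicle array measured it (adjusted p = 1.51e-05). Tead4, which acts above Cdx2, fell by 0.39 on the log2 scale in sh-SIRT1 cells (adjusted p = 0.0190) and differed by 0.25 in sh-Control cells (adjusted p = 0.156, and 0.54 with array 1 alone, adjusted p = 0.0097). Msx2 rose by 3.12 and 3.13 and Elf3 by 2.58 and 2.13, in sh-SIRT1 and sh-Control cells, while Ovol1 fell by 1.42 and 1.17 on the log2 scale. Under RA, Cdx2 was 1.40 ± 0.47 higher in sh-SIRT1 cells (adjusted p = 0.0496) and Tead4 was lower, at -0.63 (adjusted p = 0.00219, and -0.93 with array 1 alone); Cdx2 no longer passed with array 1 alone (0.84, adjusted p = 0.373) or with the replicate block (1.48, adjusted p = 0.0966). In sh-SIRT1 against sh-Control cells 4 of the 15 were higher and 4 lower under RA, and 0 higher and 1 lower in vehicle by limma (1 and 1 at an unadjusted p under 0.05). Of all genes 8.59% were higher and 11.7% lower under RA, and 4.41% higher and 4.21% lower in vehicle. The replicate block called 5 higher and 4 lower under RA and 3 higher and 1 lower in vehicle. With array 1 as the whole sh-Control RA group, 7 rose and 2 fell in sh-Control cells and 1 was higher and 4 lower in sh-SIRT1 cells under RA.

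Of 25 genes of differentiated trophoblast, 21 were matched on the array and 14 tested. Gcm1, Plac1, Nrk and Pcdh12 were well above background on no vehicle array and passed the filter only through RA arrays. The filter thus favours genes that rise, so the RA counts and medians of this list are descriptions. In each line 8 rose under RA and 1, the imprinted gene Phlda2, fell, with median differences of 1.75 in sh-SIRT1 cells and 1.98 in sh-Control cells; with array 1 alone 8 rose and 1 fell in sh-Control cells as well. Mmp9, a gelatinase of giant cells, rose by 4.22 in sh-SIRT1 cells and 2.69 in sh-Control cells. Flt1, a receptor of vascular endothelial growth factor, rose by 3.51 and 2.25 in the same order of lines (2.44 in sh-Control cells with array 1 alone). Rhox6 and Rhox9, X-linked homeobox genes of the placenta, rose by 3.04 and 2.72 in sh-SIRT1 cells and by 2.48 each in sh-Control cells. Pcdh12 was well above background on no vehicle array and was at least 2.03-fold higher under RA in sh-SIRT1 cells. In sh-Control cells, where 2 of 4 RA arrays were well above background, no bound could be given for it. Plac1 was measured above background on none of the vehicle arrays and was at least 19.8-fold higher under RA in sh-SIRT1 cells and at least 4.83-fold in sh-Control cells. Tpbpa, the marker of spongiotrophoblast, and Prl8a9, Ctsq, Cts7, Cts8, Synb and Hsd3b6 did not pass the filter on dim probes. In sh-SIRT1 against sh-Control cells 8.59% of all genes were higher and 11.7% lower under RA, and 4.41% higher and 4.21% lower in vehicle. These shares also stand beside the counts between the lines in the lists below. Of the 14, 4 were higher and 2 lower under RA, and 0 higher and 1 lower in vehicle by limma. In vehicle 1 was higher and 2 lower at an unadjusted p under 0.05. The higher ones were Peg10, Plac1, Pcdh12 and Mmp9, by 2.10, 1.77, 0.87 and 1.22, and with array 1 as the whole sh-Control RA group by 1.00, 0.47, 0.46 and 0.65 with none past the threshold. The lower ones were Tfpi and Gcm1, at -1.39 and -0.68 (-1.49 and -0.21 with array 1 alone, neither past the threshold). With the replicate block 4 were higher and 2 lower under RA, and 1 higher and 2 lower in vehicle.

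Krt7 belongs to simple epithelium, and of 10 further genes of such epithelia 4 rose and 1 fell in each line under RA. Of all genes, 58.2% passed in sh-SIRT1 cells and 46.8% in sh-Control cells. Krt8 rose by 2.84 and 2.50, Krt18 by 3.01 and 2.44 and Dsp, the desmosomal plaque gene, by 3.95 and 2.52, in sh-SIRT1 and sh-Control cells. Krt19 rose by 2.57 in sh-SIRT1 cells (limma adjusted p = 0.0044) and differed by 0.56 in sh-Control cells (adjusted p = 0.54, and 2.31 with array 1 alone). Epcam fell in both, by 1.72 and 1.40 on the log2 scale. With array 1 alone 3 of the 10 rose and 2 fell in sh-Control cells. Their summed level was 83.6 to 175 in sh-SIRT1 RA, 38.6 to 138 in sh-Control RA, 29.1 to 36.7 in sh-SIRT1 vehicle and 28.5 to 32.0 in sh-Control vehicle. Between the lines under RA, 8.59% of all genes were higher and 11.7% lower in sh-SIRT1 cells. Under RA, 1 of the 10, Dsp, was higher in sh-SIRT1 cells than in sh-Control cells (1.24, limma adjusted p = 0.00232), but not past the threshold with array 1 alone (0.98, adjusted p = 0.126). With the replicate block 3 of the 10 were higher, Dsp, Krt8 (1.17, adjusted p = 0.0313) and Krt18 (0.82, adjusted p = 0.0365), against 1.06 and 0.63 for Krt8 and Krt18 without it (adjusted p = 0.0827 and 0.337); in vehicle it called 1 lower, against 0 without it.

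**Figure D4:**
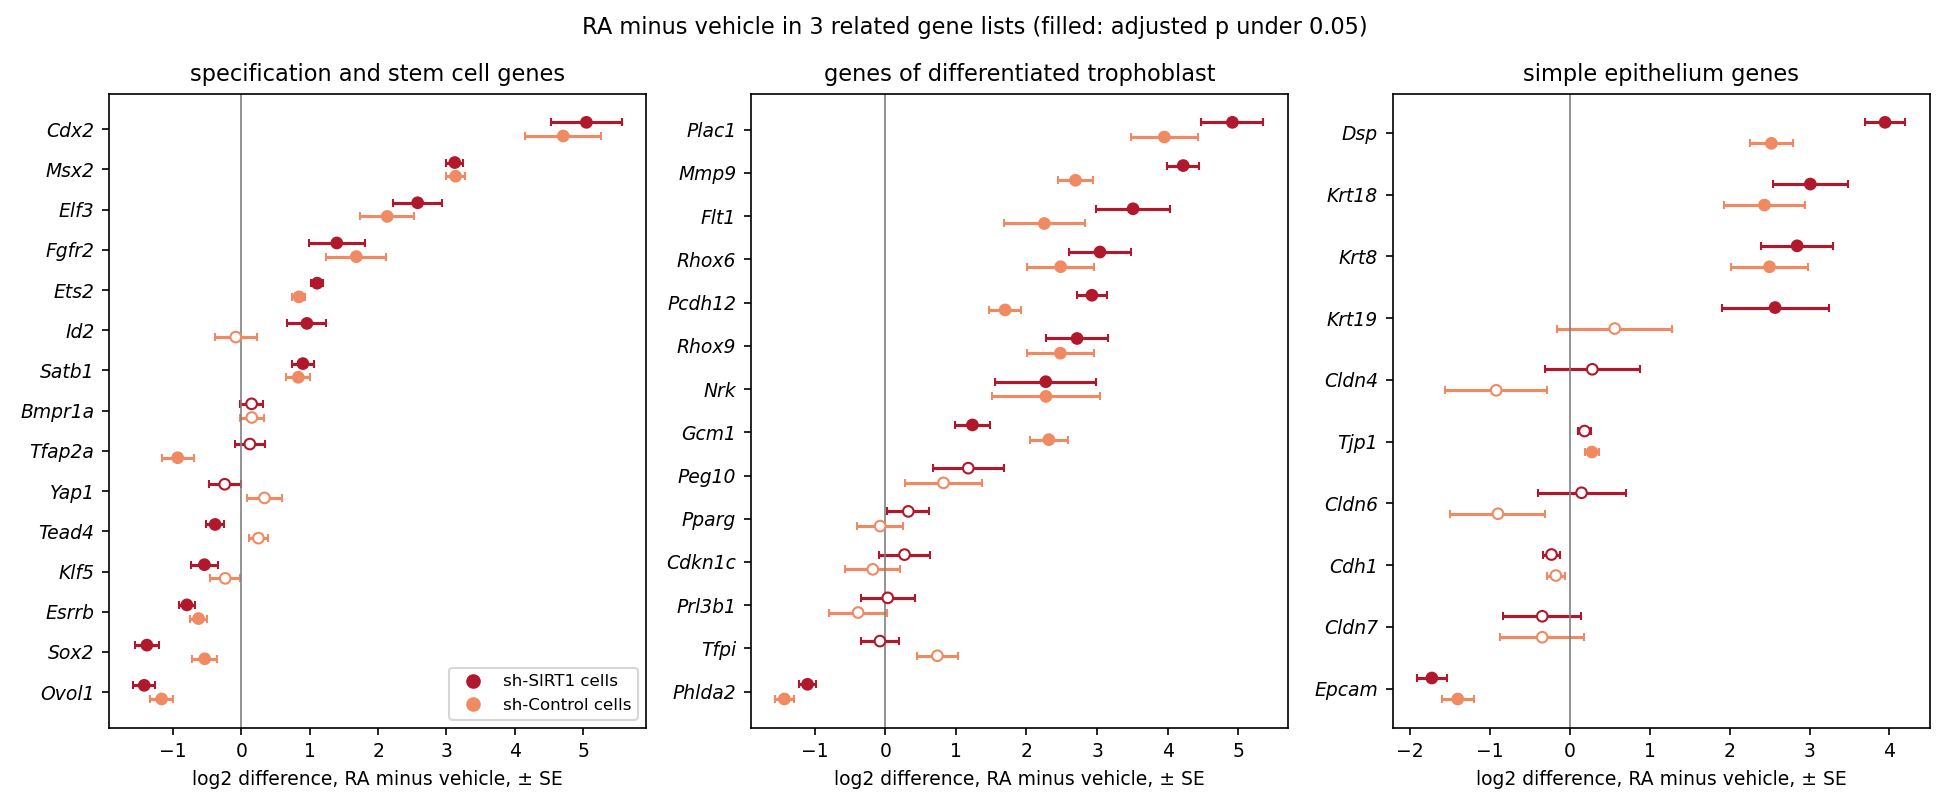
Log2 difference ± SE, RA minus vehicle, in sh-SIRT1 and sh-Control cells for genes of trophoblast specification and stem cells, of differentiated trophoblast and of simple epithelium; filled points have a limma adjusted p under 0.05. Dsp is at 3.95 and Mmp9 at 4.22 in sh-SIRT1 cells, and Ovol1 and Epcam lie at -1.42 and -1.72; points of genes not well above background in vehicle, such as Plac1, rest on values at background.

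Pou5f1, which represses Cdx2 in embryonic stem cells, fell by 0.98 on the log2 scale in sh-SIRT1 cells (limma adjusted p = 9.38e-04) and by 0.65 in sh-Control cells (adjusted p = 0.0266; a difference of -0.13 with array 1 alone). Nanog rose by 0.72 in sh-SIRT1 cells (adjusted p = 6.39e-04) and by 1.30 in sh-Control cells (adjusted p = 1.55e-05; 1.01 with array 1 alone). Of the 10 pluripotency genes, 2 rose and 6 fell in sh-SIRT1 cells, and 2 rose and 4 fell in sh-Control cells (3 and 2 with array 1 alone). Of 5 tested genes of a state that resembles early cleavage embryos, 4 rose and 1 fell in each line (4 and 0 in sh-Control cells with array 1 alone), and 1 was lower in sh-SIRT1 cells under RA (0 with array 1 alone, 2 with the replicate block). All 7 RA targets rose in both lines (6 in sh-Control cells with array 1 alone).

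For each tested trophoblast gene, the named genes with the most similar pattern over the 16 arrays were taken by Pearson's r among 13805 genes; the points share arrays, treatment and line, so these values are descriptions. Gata3 ran closest to Mcoln3 (r = 0.993), Wls and Jun, Esx1 to Casp8 (0.987), Yaf2 and Scd1, and Gata2 to Crygc (0.984), Cryga and 2610028E06Rik. Hand1 ran closest to Penk (0.982), Igf2 and Man1c1, Krt7 to Mxra7 (0.980), Nfil3 and Pygl, and Eomes to Gdpd1 (0.977), Gm11487 and Zscan4c. Tfap2c and Plet1 had close matches in Sorl1 (0.960) and Nid1 (0.952), while the closest pattern to Ascl2, that of Nav1, reached 0.840. No trophoblast gene was among the 3 closest of another.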

How the data were processed

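Cy3-labelled RNA of the 16 samples was measured on 1-colour Agilent arrays of 45018 spots. The deposited files give each spot's processed intensity, made by the authors with Feature Extraction 9.5 according to the submitters' processing notes; per the file headers it was version 9.5.3.1, with spatial and multiplicative trends removed and surrogates near background. The deposited series table held the same intensity on all 45018 spots.

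Control spots (43379 of 45018 remained) and outlier spots were left out. The deposited intensity was scaled to the array's 75th percentile, put on a log2 scale and averaged over the spots of a probe. Probes that no group showed well above background on all its arrays were dropped (26373 of 41174 remained), 17567 were named by accession through a RefSeq table, and the brightest probe stood for its gene, giving 18281 genes, 13837 with a symbol. The test was limma 3.58.1 (R 4.3.3), two-sided, on 16 arrays and 4 group means with 12 residual degrees of freedom, adjusted over all genes by Benjamini-Hochberg at 0.05, and checked on simulated data. Where a whole group lay at background, a fold is a bound.

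The 10 genes, 10 lists of related genes and other cell types, and the tests were chosen with earlier results of these data known. From each list the text names up to 6 of the genes past the threshold in the comparison described, the largest first, and Cdx2, Tead4, Pou5f1, Nanog and Sirt1 whatever their values. Phlda2, Epcam, Ddx3y, genes that passed only with the replicate block and the listed genes near background were named after their values were seen. 1 listed gene of trophoblast specification was left out of its list and is not reported here. Arrays of the 2 lines with the same number deviated together within a treatment (correlations of 0.36 to 0.54 in all 7 pairs), so a replicate block was fitted within each treatment. Under RA, arrays with different numbers ranged from -0.62 (sh-SIRT1 2 with sh-Control 4) to 0.52 (sh-SIRT1 5 with sh-Control 3). Some of these were as high as the numbered pairs, so the correlations alone do not show that the numbers mark true pairs. Alternatives were normexp background correction (offset 50), other scalings and filters, the slide as a block, single probes, a trended robust eBayes and each array left out.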

Additional observations from a re-analysis of the deposited data

Results flagged for a closer look

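For the trophoblast genes, the lowest or highest array of each RA group was compared with the others by the gap to its nearest neighbour (20 groups of values; chance gives about 1 in 20 such groups). Gata2 on sh-SIRT1 RA array 1, at a level of 0.10, lay below the other 5 arrays. Gata3 on sh-Control RA array 2, at -0.0046, lay above the other 3, and Plet1 on the same array, at -0.59, lay below the other 3.

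In the main fit the RA effect differed between the lines for 2 genes by a test of the difference itself, which 3.59% of all genes passed. For Plet1 the RA effect in sh-SIRT1 cells minus that in sh-Control cells was 2.41 on the log2 scale (limma adjusted p = 0.0241), and for Ascl2 it was 1.14 (adjusted p = 0.00914). Neither passed by limma with the slide as a block (adjusted p = 0.128 and 0.0731) or with normexp (adjusted p = 0.0873 and 0.634).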

How the results depend on the processing

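The differences that passed the test kept their sign in every alternative run, with 535 values on the same side of the threshold and 31 no longer past it, and in all 49 within-slide values. Of differences that had not passed, 22 values passed and 30 turned sign. Those that turned were the RA effect difference (sh-SIRT1 minus sh-Control) of Gata3 with quantile scaling (-0.15) and slide block (-0.044), of Hand1 with normexp (0.38) and replicate block (0.24) and of Tfap2c with array 1 as the whole sh-Control RA group (0.62). With that group of 1 array, Hand1 (-0.94) and Krt7 (-0.47) under RA and Tfap2c for RA in sh-Control cells (-0.20) turned too, as did Krt7 under RA with the slide block (-0.053) and Hand1 in vehicle with normexp (-0.067).

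With single arrays left out, Gata2 in vehicle ranged from -0.29 to 0.11, Tfap2c for RA in sh-SIRT1 cells from -0.16 to 0.72, and the RA effect differences of Gata3 from -0.29 to 0.49, Hand1 from -0.66 to 0.41, Esx1 from -0.54 to 0.0094 and Tfap2c from -0.95 to 0.28. Trophoblast genes called then ranged from 2 to 4 in vehicle, 2 to 4 under RA and 1 to 4 for the RA effect difference, and all genes called from 739 to 2241 in vehicle and 204 to 1885 for that difference. Gata3 lost its call in vehicle without any 1 sh-Control vehicle array, sh-SIRT1 vehicle array 2 or 3, or any 1 of sh-SIRT1 RA arrays 3 to 6. Plet1 lost the call of its RA effect difference without sh-Control vehicle array 2 or array 3, and Eomes its call in vehicle without either of these or without sh-SIRT1 vehicle array 2 or array 3.

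In vehicle 4 trophoblast genes passed, against 2 with no filter on dim probes and 1 with normexp; of all genes 1576 passed, against 268 with normexp, 3515 with the replicate block, 2372 with the 1-array group and 975 with the slide block. For RA in sh-Control cells 8562 genes passed, against 4633 with normexp. Under RA 2 trophoblast genes passed, against 1 among genes above background on all arrays, 4 with the replicate block and 1 with the 1-array group; of all genes 3706 passed, against 1122 with normexp, 5126 with the replicate block and 2030 with the 1-array group. For the RA effect difference 2 trophoblast genes passed, against 0 by limma with normexp, the 1-array group or the slide block (3, 4 and 4 at an unadjusted p under 0.05); of all genes 657 passed, against 1201 of single probes, 286 with no filter, 22 with normexp, 1656 with the replicate block, 200 with the 1-array group and 92 with the slide block. The causes were not tested. Normexp moved the median RA effect over all genes to -0.01 in sh-SIRT1 cells and -0.03 in sh-Control cells. Hand1, Gata3 and Elf5 lay near background in vehicle, which limits their folds. For the trophoblast genes the replicate block changed no call besides those given. Between treatments, same-numbered arrays of a line did not deviate together (correlations of -0.21 to 0.22), and a replicate block over arrays 1 to 3, chosen after seeing the data, called 7 trophoblast genes for RA in each line, and 9339 genes in sh-SIRT1 and 7683 in sh-Control cells.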
